A study of Homo sapiens with 4 samples.

Results

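Aldehyde dehydrogenases were followed in A549 cells, an established human lung adenocarcinoma line. The genes were 8 members of the family chosen by symbol: ALDH1A1, ALDH1A3, ALDH1B1, ALDH2, ALDH3A1, ALDH3A2, ALDH3B1 and ALDH7A1. Each symbol matched 1 of the 57905 genes in the deposited count table. All 8 had a mean of at least 1 CPM (counts per 1000000 counts on genes, with the libraries scaled to each other by the TMM method), a level that 13966 genes reached, and none of the 8 fell below 10.7 CPM in any library. RNA was sequenced from 4 libraries, 1 for each condition. The sc library came from cells with a scramble control, and the shDCBLD2 library from cells with a short hairpin RNA against DCBLD2, a transmembrane receptor-like protein. The empty vector library came from cells with the vector alone, and the fourth from cells labelled as DCBLD2 overexpression. The methods of the study describe stable lines made with lentiviruses packaged in 293T cells, and do not state whether the sequenced cells were these lines. The coding sequence of DCBLD2 was placed in an EF1 vector and the hairpins in a different one. The shDCBLD2 sample is titled shD5, and whether its hairpin is one of those published is not given in the sources used here.

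Aldehyde dehydrogenases oxidize reactive aldehydes to carboxylic acids with NAD or NADP as the electron acceptor. Their substrates range from retinal, the precursor of retinoic acid, to acetaldehyde, fatty aldehydes and the aldehydes that form when lipids are peroxidized. High aldehyde dehydrogenase activity is used as a marker of stem-like tumor cells, and A549 is known as a line rich in ALDH1A1 and ALDH3A1.

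The libraries held 16601633 to 21537283 counts on genes. With 1 library per condition no difference below has a replicate check, no test was possible and no p-value is given. Each interval is a 95% exact interval that covers counting error only, and each comparison is one between these libraries, not between the conditions. The labels were checked on DCBLD2. Its level was 504 CPM in sc and 197 CPM in shDCBLD2, and 434 CPM in the empty vector library against 242 CPM in the library labelled DCBLD2 overexpression. This transcript went against its label there, with a log2 ratio to the empty vector of -0.84 (-0.90 to -0.79). The library is called the overexpression-labelled library from here on. The cells were also looked at with 10 markers of lung adenocarcinoma cells, which cannot tell A549 from other epithelial lines. KRT7, KRT8 and KRT18, keratins of simple epithelia, had at least 61475 counts each in every library. The markers of alveolar type II cells were near 0: SFTPA1 had no count, SFTPB at most 6, SFTPC at most 11 and NKX2-1 at most 7.

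The 8 genes together took 1.08% of all counts in sc, 0.626% in shDCBLD2, 0.941% in the empty vector library and 0.907% in the overexpression-labelled one. ALDH1A1 and ALDH3A1 made up 85.2% to 88.2% of those counts in each library. Levels of different genes were compared per length, as FPKM (counts per kilobase of exons, relative to the library total). In all 4 libraries ALDH1A1 stood highest, followed by ALDH3A1 and then ALDH3B1, and ALDH7A1 and ALDH1A3 stood last. In sc the FPKM values were 1993 for ALDH1A1, 986 for ALDH3A1, 92.6 for ALDH3B1, 83.9 for ALDH2, 39.7 for ALDH3A2, 35.2 for ALDH1B1, 13.9 for ALDH7A1 and 3.11 for ALDH1A3. ALDH1A1 ranked 12th of all genes by FPKM in sc and 30th in the overexpression-labelled library. ALDH2, ALDH3A2 and ALDH1B1 changed places. ALDH2 stood above ALDH3A2 and ALDH3A2 above ALDH1B1 in sc and with the empty vector, whereas ALDH1B1 stood above ALDH2 in shDCBLD2 and above ALDH3A2 in the overexpression-labelled library. No neighbors in the order of any library had overlapping counting intervals, but without replicates the spread between cultures is unknown.

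The first question was how the genes differed between the overexpression-labelled library and the empty vector. None of the 8 genes was at least 2-fold higher or lower with an interval that left out no change, a rule that 11.8% of the 13966 genes met. By the same rule at 1.5-fold, ALDH3A1 was higher and ALDH1A1, ALDH1A3 and ALDH3A2 were lower, while 30.6% of all genes met it, 12.8% as higher and 17.8% as lower. The median log2 ratio of the 8 genes was -0.29, against -0.04 over all genes. In shDCBLD2 against sc, 2 of the 8 genes were at least 2-fold lower, ALDH3A1 and ALDH2, and 0 were higher. Over all genes 6.78% differed by this rule, 5.62% as lower and 1.16% as higher. ALDH3B1 joined them at 1.5-fold, where 11.6% of all genes were lower and 4.93% higher. The median of the 8 genes was -0.44, against 0.01 over all genes. Between the empty vector and sc, the control libraries, 0 of the 8 genes differed by 2-fold or by 1.5-fold, against 4.11% and 13.7% of all genes. Of all genes 2.22% were higher and 1.89% lower at 2-fold, and 7.07% higher and 6.67% lower at 1.5-fold. The median there was -0.07, against -0.01 over all genes. Because the empty vector and sc each enter more than 1 comparison, the ratios are given side by side and not as independent results.

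ALDH3A1, a cytosolic and nuclear enzyme that oxidizes aromatic aldehydes and the aldehydes of lipid peroxidation, had the widest range of the 8 genes. Its entry lies on chromosome 17 from 19641297 to 19652256 on the minus strand in the deposited coordinates, for which the files give no genome build. ALDH3A1 stood at 3774 CPM in sc (73834 counts), 1508 CPM in shDCBLD2 (32539 counts), 2527 CPM in the empty vector library (46390 counts) and 4439 CPM in the overexpression-labelled library (73278 counts). It was thus lowest in shDCBLD2 and highest in the overexpression-labelled library, and the controls lay between them but apart from each other. Here and below, fewer cells that express a gene and less RNA of it per cell cannot be told apart in these bulk samples. The log2 ratio was -1.32 (-1.34 to -1.30) in shDCBLD2 against sc, and 3.01% of all genes had a lower one. In the overexpression-labelled library against the empty vector it was 0.81 (0.80 to 0.83), and 8.48% of genes had a higher one. The empty vector against sc gave -0.58 (-0.60 to -0.56). The size of both differences therefore depended on the control. With sc in place of the empty vector, the overexpression-labelled library was 1.18-fold higher, with a log2 ratio of 0.23 (0.22 to 0.25). With the empty vector in place of sc, shDCBLD2 was lower by a log2 ratio of -0.74 (-0.77 to -0.72). Of the 10 epithelial markers 6 passed the filter. In shDCBLD2 against sc, 3 of the 6 were lower by 2-fold or more, where 5.62% of all genes were. These were CDH1, with 220 against 1050 counts, EPCAM, with 26 against 64, and KRT19, with 614 against 1228. KRT7 alone of the 6 was higher, at 4938 CPM in shDCBLD2 and 4051 CPM in sc. In the overexpression-labelled library 2 of the 6, EPCAM and KRT19, exceeded the empty vector by 2-fold or more, where 6.42% of all genes did. The summed level of the 10 was 17548 CPM in sc, 12573 CPM in shDCBLD2, 14842 CPM in the empty vector library and 19221 CPM in the overexpression-labelled one. Nearly all of each sum was KRT7, KRT8 and KRT18. The part of the 10 markers in the levels of ALDH3A1 was not tested. RP11-311F12.2 overlaps ALDH3A1 on the other strand and had at most 41 counts in any library.

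ALDH2, the mitochondrial enzyme that clears acetaldehyde formed from ethanol, followed the same order of libraries. Its entry is on chromosome 12 from 112204691 to 112247782. It stood at 178 CPM in sc, 85.7 CPM in shDCBLD2, 141 CPM in the empty vector library and 189.7 CPM in the overexpression-labelled library. The shDCBLD2 library was again the lowest and the overexpression-labelled one the highest, with sc close below it. The log2 ratio was -1.05 (-1.13 to -0.97) in shDCBLD2 against sc, 0.43 (0.36 to 0.51) in the overexpression-labelled library against the empty vector, and -0.34 (-0.41 to -0.26) for the empty vector against sc. With the other control these became -0.71 for shDCBLD2 and 0.09 (0.02 to 0.16) for the overexpression-labelled library.

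ALDH1B1 is the other mitochondrial enzyme of the 8 that accepts acetaldehyde. It lies on chromosome 9 from 38392661 to 38398658. Its level was 105 CPM in sc, 141 CPM in shDCBLD2, 94.7 CPM in the empty vector library and 82.5 CPM in the overexpression-labelled library. The shDCBLD2 library was the highest here, where it was the lowest for ALDH2. The log2 ratio in shDCBLD2 against sc was 0.42 (0.34 to 0.50). It was -0.20 (-0.30 to -0.10) in the overexpression-labelled library against the empty vector and -0.15 (-0.25 to -0.06) between the controls. The ratio of ALDH2 to ALDH1B1 per exonic base, which needs no scaling between libraries, was 2.38 (2.26 to 2.52) in sc, 2.10 (1.97 to 2.23) with the empty vector, 3.25 (3.05 to 3.47) in the overexpression-labelled library and 0.858 (0.809 to 0.909) in shDCBLD2. ALDH1B1 outweighed ALDH2 in shDCBLD2, in contrast to the other 3 libraries.

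ALDH1A1, the cytosolic enzyme that oxidizes retinal to retinoic acid, was lower in shDCBLD2 and in the overexpression-labelled library than in both controls. Its entry is on chromosome 9 from 75515578 to 75695358 on the minus strand. The level was 5546 CPM in sc (108497 counts), 3854 CPM in shDCBLD2 (83137 counts), 5645 CPM in the empty vector library (103629 counts) and 3415 CPM in the overexpression-labelled library (56373 counts). The controls were nearly level with each other, with a log2 ratio of 0.03 (0.01 to 0.04), which became -0.04 when the libraries were scaled by their totals alone. Against its control the log2 ratio was -0.73 (-0.74 to -0.71) in the overexpression-labelled library and -0.53 (-0.54 to -0.51) in shDCBLD2. With the other control the values were -0.70 and -0.55. ALDH1A1 and ALDH3A1 thus went in opposite directions in the overexpression-labelled library and in the same direction in shDCBLD2. In the former, ALDH1A1 differed from the empty vector by -2230.1 CPM and ALDH3A1 by 1912 CPM, and the summed level of the 8 genes was 9124 CPM against 9597 CPM. In shDCBLD2 the sum was 6250.4 CPM against 10564 CPM in sc. Per exonic base, ALDH1A1 exceeded ALDH3A1 by 3.51 times in shDCBLD2, by 3.07 times with the empty vector and by 2.02 times in sc. In the overexpression-labelled library the ratio was 1.06 (1.05 to 1.07).

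**Figure D1:**
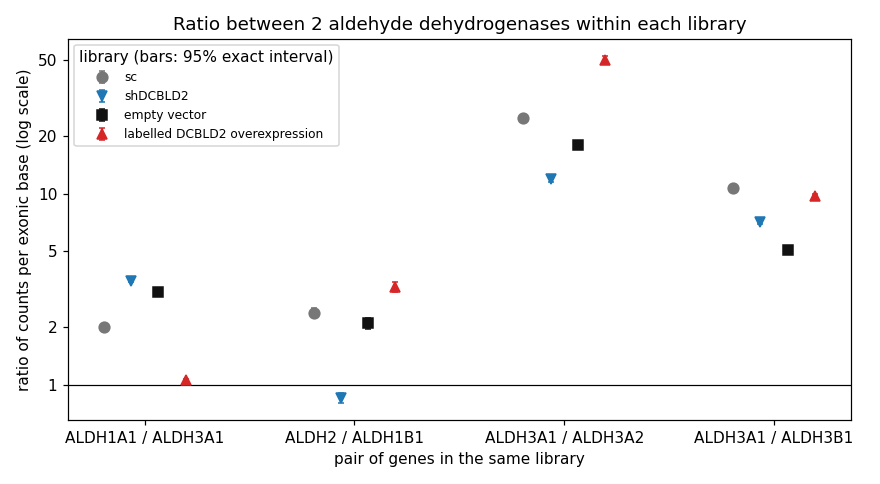
Ratio of counts per exonic base (y axis, log scale) between both genes of a pair (x axis) within each library; points are libraries and bars are 95% exact intervals, mostly smaller than the points. ALDH1A1 to ALDH3A1 is lowest in the overexpression-labelled library (1.06), and ALDH2 to ALDH1B1 is below 1 in shDCBLD2 alone among the 4 libraries.

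ALDH1A3 shares the retinal substrate of ALDH1A1. It lies on chromosome 15 from 101417919 to 101456831. Its level was 17.5 CPM in sc, 18.7 CPM in shDCBLD2, 19.2 CPM in the empty vector library and 10.7 CPM in the overexpression-labelled library. The first 3 values have overlapping counting intervals, and the last lies below them. Against the empty vector its log2 ratio was -0.84 (-1.12 to -0.59), from 353 to 176 counts. It was 0.09 (-0.12 to 0.31) in shDCBLD2 against sc and 0.13 (-0.09 to 0.35) between the controls, and both of these intervals include no change. RP11-66B24.4, on the opposite strand, overlaps the gene and had 65 to 101 counts. Whether the authors counted by strand is not given in the sources used here, so reads of the overlap cannot be assigned with certainty.

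A further retinal dehydrogenase, ALDH1A2, is one of the 11 other human family genes that were looked up. It had 0 counts in sc, 2 in shDCBLD2 and 4 in the empty vector library, but 298 in the overexpression-labelled library, or 18.1 CPM there. The ratio to the empty vector, taken without a prior count and after scaling, was 82.9-fold (32.0 to 306), and with the prior count of 2 used for the other ratios it was 56.2-fold. ALDH1A2 passed the filter on low levels through this 1 library. In FPKM it stayed a small part of the group: of the summed level of ALDH1A1, ALDH1A2 and ALDH1A3, ALDH1A1 made up 99.7% to 99.8% in each library, and ALDH1A2 0.174% in the overexpression-labelled one. ALDH1A2 overlaps LIPC and AQP9 in the deposited coordinates, which had 2 counts and 1 count in that library. Some markers of other cells also differed in the same library, in both directions. The 10 fibroblast markers summed to 38.3 to 59.5 CPM in the other 3 libraries and to 82.6 CPM there. COL1A1 made up most of each sum. It stood at 32.7 CPM in sc, 54.0 CPM in shDCBLD2, 35.5 CPM in the empty vector library and 63.1 CPM there. Of the 10 markers 5 passed the filter, among them THY1, with 114 counts there against 160 in the empty vector library. The 2 of these that exceeded the empty vector by 2-fold or more, COL1A2 and COL3A1, passed it only through the library where they were high, and the 1 that fell short by as much, TCF21, only through the empty vector library, so these calls were fixed by the filter. COL1A2 had 67 counts there against 0 in the empty vector library and 17 in sc, COL3A1 had 68 against 6 and 9, TCF21 had 15 against 38 and 16, and POSTN had 42 against 0 in each of the other 3. Their defining members DCN and LUM had 4 counts and 1 count, and FAP had 0 in all libraries. The 10 markers of HEK293-like cells summed to 270.4 CPM there and to 264 to 462 CPM elsewhere, and 8 of the 10 passed the filter. Their log2 ratios to the empty vector were above 0 for 4 and below 0 for 4. NEFM, with 221 counts there and at most 4 elsewhere, and HOXA9, with 59 against at most 5, passed the filter only through that library. NEFL had 322 counts against 105, and PCSK1N 1874 against 1072. INA, with 227 counts against 550, and PEG10, with 1341 against 2549, were lower, as were MEIS2 and TSPYL5, whereas SYT4 and STMN2 were at 0 throughout. The 8 blood markers summed to at most 1.21 CPM in any library, with PTPRC at 0. The part of such cells in the level of ALDH1A2 was not tested.

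The promoters of the retinal dehydrogenases are shown because these paralogs, with a common substrate, stood at such different levels and moved differently. The sequences are from RefSeq on GRCh38.p14 and run from 250 bases before to 50 bases after the annotated start, on the strand of the gene. Of the 8 genes, 6 had a promoter in the table that was used, all but ALDH2 and ALDH3A1. Capitals mark matches to 4 short motifs searched on both strands: TGACNNNGC (antioxidant response element core), GCGTG (xenobiotic response element core), TGANTCA (AP-1) and CTTTGA (TCF/LEF). The windows are chr9:72953004-72953303 (minus strand) for ALDH1A1, chr15:100879581-100879880 (plus strand) for ALDH1A3 and chr15:58065662-58065961 (minus strand) for ALDH1A2, the upstream one of its 2 annotated starts.
ALDH1A1: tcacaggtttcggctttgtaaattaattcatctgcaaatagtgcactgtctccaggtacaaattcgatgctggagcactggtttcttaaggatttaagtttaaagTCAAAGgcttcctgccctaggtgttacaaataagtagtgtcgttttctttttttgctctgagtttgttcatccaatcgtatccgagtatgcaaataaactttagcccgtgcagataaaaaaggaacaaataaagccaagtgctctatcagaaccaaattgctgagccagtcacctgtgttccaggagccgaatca
ALDH1A3: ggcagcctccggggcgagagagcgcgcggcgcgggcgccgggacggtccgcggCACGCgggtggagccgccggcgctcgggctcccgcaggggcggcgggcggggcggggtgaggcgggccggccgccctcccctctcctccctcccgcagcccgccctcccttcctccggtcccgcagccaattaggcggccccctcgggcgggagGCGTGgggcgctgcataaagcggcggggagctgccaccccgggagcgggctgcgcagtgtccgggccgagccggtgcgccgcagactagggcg
ALDH1A2: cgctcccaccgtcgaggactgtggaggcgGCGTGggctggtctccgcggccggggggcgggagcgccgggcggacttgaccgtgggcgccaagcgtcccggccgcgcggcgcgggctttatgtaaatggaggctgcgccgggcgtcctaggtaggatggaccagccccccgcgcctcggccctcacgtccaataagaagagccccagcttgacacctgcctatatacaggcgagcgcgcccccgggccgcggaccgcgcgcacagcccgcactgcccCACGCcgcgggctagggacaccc
The ALDH1A1 window is rich in A and T, with 40.3% G and C and 7 CpG sites, and 11.8% of the 35116 promoters have less G and C. The ALDH1A3 window has 81.7% and 46 sites, more G and C than 98.7% of promoters, and the ALDH1A2 window has 74.0% and 41 sites. The median promoter has 58.7% and 14 sites. In ALDH1A1 the capitals are 1 match to CTTTGA on the opposite strand, a motif found in 12.9% of all promoters. In ALDH1A3 and ALDH1A2 they are matches to GCGTG, 2 in each, a motif found in 36.5% of all promoters. Of the 6 members with a promoter, 0 held TGACNNNGC, which 13.3% of all promoters hold, and 0 held TGANTCA, which 7.71% hold. A match to letters is no evidence of binding, and a window without a match says only that the letters are not in it.

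Genes of the retinoid pathway around these enzymes were followed as a list of 24, of which 19 passed the filter. The list was written from general knowledge, but with earlier results of these data known. Its counts are therefore a description and no test of the pathway. In the overexpression-labelled library 5 of the 19 exceeded the empty vector by 2-fold or more and 1 fell short of it by as much, where 6.42% and 5.35% of all genes were. The list's median log2 ratio was 0.37, against -0.04 over all genes. The higher ones include RDH10, which makes retinal from retinol, the step before ALDH1A1. RDH10 stood at 57.7 CPM against 22.8 CPM in the empty vector library, a log2 ratio of 1.33 (1.17 to 1.51). CYP26B1 and CYP26A1 break retinoic acid down. CYP26B1 stood at 72.3 CPM against 18.1 CPM, a log2 ratio of 1.99 (1.82 to 2.17), and at 35.7 CPM in sc. CYP26A1 had 62 counts against 22, a log2 ratio of 1.57 (0.93 to 2.42). CRABP2, which carries retinoic acid into the nucleus, had 305 counts against 73, a log2 ratio of 2.19 (1.84 to 2.61). The lower one was RARB, a retinoic acid receptor that is itself a well-known target of retinoic acid, with 102 counts against 273 and a log2 ratio of -1.25 (-1.61 to -0.93). RARRES1 and RARRES3, first described as genes that respond to retinoids, had log2 ratios of 0.99 (0.66 to 1.34) and 0.98 (0.51 to 1.52). Other genes of the list had ratios below 0: FABP5, a carrier of fatty acids and retinoic acid, at -0.81 (-1.18 to -0.46), and RDH11 and DHRS3, which act between retinol and retinal, at -0.34 (-0.47 to -0.21) and -0.37 (-0.46 to -0.29). Of the 19 genes 13 had a ratio above 0 and 6 below.

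In shDCBLD2 against sc, 0 of the 19 retinoid genes were higher by 2-fold or more and 2 were lower by as much, against 1.16% and 5.62% of all genes, with a median of -0.04 against 0.01. Those were RARRES1, with 50 against 114 counts and a log2 ratio of -1.29 (-1.84 to -0.84), and RARRES3, with 7 against 24 counts. RDH10 had 307 against 537 counts, a log2 ratio of -0.94 (-1.15 to -0.74). RARB had 510 against 347, a log2 ratio of 0.41 (0.22 to 0.62). These genes went the opposite way to the overexpression-labelled library, but CYP26A1 did not. CYP26A1 had 66 counts in shDCBLD2 against 34 in sc, so it was higher in both comparisons. Of the 19 genes 9 had a ratio above 0 in shDCBLD2 against sc and 10 below. Between the controls 1 of the 19 genes was at least 2-fold higher with the empty vector, RARRES3 with 53 against 24 counts, where 2.22% of all genes were.

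**Figure D2:**
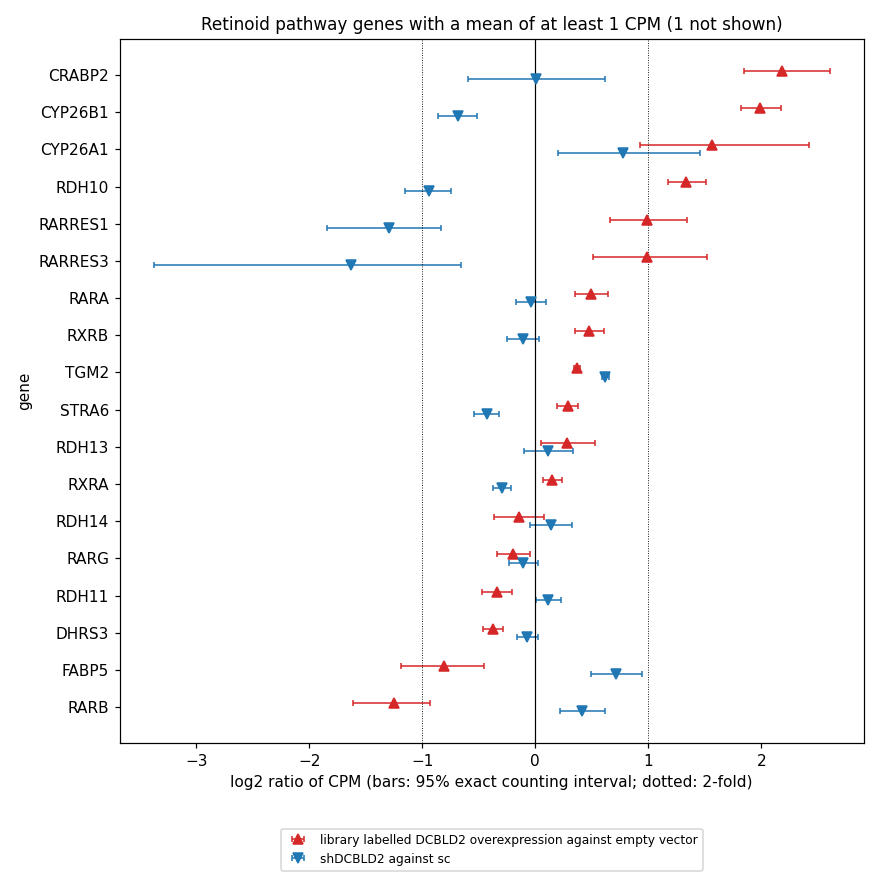
Log2 ratio of the CPM (x axis) of the retinoid pathway genes that passed the filter (y axis, with 1 of the 19 not shown) in 2 comparisons; points are ratios, bars are 95% exact counting intervals, and dotted lines mark 2-fold. CRABP2, CYP26B1, CYP26A1 and RDH10 lie beyond 2-fold to the right in the overexpression-labelled library, and RARB lies beyond it to the left.

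ALDH3A2, the fatty aldehyde dehydrogenase of the endoplasmic reticulum, lies on the same chromosome as ALDH3A1, 17, from 19551449 to 19580911. The deposited entries of the pair are 60385 bases apart and on opposite strands, with SLC47A2 between them. Its level was 250.2 CPM in sc, 209 CPM in shDCBLD2, 231 CPM in the empty vector library and 146 CPM in the overexpression-labelled library. The overexpression-labelled library was the lowest for ALDH3A2 and the highest for ALDH3A1. The log2 ratio was -0.67 (-0.74 to -0.59) against the empty vector and -0.78 (-0.85 to -0.71) with sc as control. It was -0.26 (-0.32 to -0.20) in shDCBLD2 against sc and -0.11 (-0.17 to -0.05) between the controls. Per exonic base, ALDH3A1 exceeded ALDH3A2 by 24.9 times in sc, 11.9 times in shDCBLD2, 18.0 times with the empty vector and 50.2 times (48.2 to 52.3) in the overexpression-labelled library.

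ALDH3A2 also oxidizes the aldehyde left when sphingosine 1-phosphate is cleaved, and a list of 10 genes of that route and of fatty alcohol synthesis was followed, of which 8 passed the filter. SGPP2, a phosphatase of sphingosine 1-phosphate, was the 1 gene of the list at least 2-fold different in each comparison, and it reached the filter only through the overexpression-labelled library, where it was highest. It had 35 counts in sc, 8 in shDCBLD2, 9 in the empty vector library and 98 in the overexpression-labelled library. The log2 ratio was 3.34 (2.61 to 4.77) against the empty vector and -1.99 (-3.59 to -1.14) in shDCBLD2 against sc, but the controls themselves differed by -1.67 (-3.11 to -0.78). The medians of the list were 0.00 in the overexpression-labelled library, 0.17 in shDCBLD2 and -0.02 between the controls. Over all genes the medians were -0.04, 0.01 and -0.01 in that order, and 11.8%, 6.78% and 4.11% were at least 2-fold different.

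ALDH3B1, a membrane-anchored enzyme for medium and long chain fatty aldehydes, lies on chromosome 11 from 67776048 to 67796744. It stood at 599 CPM in sc, 359.7 CPM in shDCBLD2, 846 CPM in the empty vector library and 770.4 CPM in the overexpression-labelled library. The shDCBLD2 library was the lowest, and the empty vector and overexpression-labelled libraries were above both others. The log2 ratio was -0.73 (-0.78 to -0.69) in shDCBLD2 against sc. The controls differed by 0.50 (0.46 to 0.53), so that the overexpression-labelled library was lower than the empty vector, at -0.14 (-0.17 to -0.10), and higher than sc, at 0.36 (0.33 to 0.40). With the empty vector as its control, shDCBLD2 was lower by a log2 ratio of -1.23 (-1.27 to -1.19). ALDH3B2, its close paralog on the same chromosome, had 2 counts in sc and 0 in the other libraries.

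ALDH7A1, also called antiquitin, acts in the breakdown of lysine, and it lies on chromosome 5 from 125877533 to 125931110. It varied least of the 8 genes, at 94.1 CPM in sc, 73.4 CPM in shDCBLD2, 92.0 CPM in the empty vector library and 70.2 CPM in the overexpression-labelled library. The shDCBLD2 and overexpression-labelled libraries were below both controls, as for ALDH1A1 and ALDH3A2. The log2 ratio was -0.39 (-0.50 to -0.28) against the empty vector, -0.36 (-0.46 to -0.26) in shDCBLD2 against sc, and -0.03 (-0.13 to 0.06) between the controls. Its highest and lowest levels were 1.34-fold apart, and 18.3% of all genes that passed the filter had a smaller range. Of 9 genes of lysine and choline breakdown, 5 passed the filter, and 0 of them were at least 2-fold different in any of the 3 comparisons. Their medians were -0.03 in the overexpression-labelled library, -0.26 in shDCBLD2 and 0.15 between the controls. Of all genes 11.8%, 6.78% and 4.11% were at least 2-fold different in that order, with medians of -0.04, 0.01 and -0.01.

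Of the 11 other family genes, 8 passed the filter. Besides ALDH1A2, 0 of them were at least 2-fold different in any comparison. Over all genes the shares were 11.8% in the overexpression-labelled library, 6.78% in shDCBLD2 and 4.11% between the controls. ALDH6A1, which acts in valine breakdown in mitochondria, came nearest. It stood at 16.8 CPM in sc, 8.39 CPM in shDCBLD2, 15.3 CPM in the empty vector library and 15.1 CPM in the overexpression-labelled library, a log2 ratio of -0.99 (-1.27 to -0.73) in shDCBLD2 against sc. ALDH18A1, which makes a precursor of proline, stood at 117 CPM in sc and 118 CPM in the empty vector library, and at 142 CPM in shDCBLD2 and 146 CPM in the overexpression-labelled library. Its log2 ratios to the controls were 0.28 (0.20 to 0.36) and 0.31 (0.22 to 0.39) in that order. ALDH9A1, which oxidizes an aldehyde of the route to carnitine, stood at 64.2 to 72.9 CPM over the 4 libraries, and ALDH16A1 at 72.5 to 83.7 CPM. ALDH16A1 overlaps PIH1D1, which had 1562 to 2063 counts, so its count is uncertain. Over all 19 family genes the 8 members held 94.6% to 96.8% of the counts.

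Genes of alcohol and aldehyde reduction were followed as a list of 20, of which 13 passed the filter. The list also holds AOX1 and CAT (catalase), which are not reductases, and both passed. In shDCBLD2 against sc, 1 of the 13 was at least 2-fold lower and 0 were higher, where 5.62% and 1.16% of all genes were, and the median was -0.15. That gene was AKR1C1, an aldo-keto reductase that like ALDH3A1 is abundant in A549. It stood at 713 CPM in sc, 317 CPM in shDCBLD2, 566 CPM in the empty vector library and 888 CPM in the overexpression-labelled library. This is the same order of libraries as for ALDH3A1 and ALDH2. Of the epithelial markers, KRT8, KRT18, CDH1 and EPCAM stood in this order as well, whereas KRT7 and KRT19 did not. The share of all genes in this order was not taken. The log2 ratio of AKR1C1 was -1.17 (-1.21 to -1.13) in shDCBLD2 against sc and 0.65 (0.61 to 0.68) in the overexpression-labelled library against the empty vector. In the latter comparison 1 of the 13 was at least 2-fold higher, AOX1, an aldehyde oxidase, with 125 against 43 counts, where 6.42% of all genes were, and the median was -0.16. Between the controls 0 were 2-fold different, where 4.11% of all genes were, with a median of 0.01. The paralogs AKR1C2 and AKR1C3 had log2 ratios of -0.97 (-0.99 to -0.95) and -0.82 (-0.84 to -0.79) in shDCBLD2, and of -0.33 (-0.35 to -0.31) and -0.12 (-0.15 to -0.10) in the overexpression-labelled library. AKR1C1 was thus alone among the 3 in having a ratio above 0 in the latter. These paralogs are alike in sequence, and reads shared among them could have been split by the counting.

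Targets and partners of the aryl hydrocarbon receptor (AHR), a known activator of ALDH3A1, were a list of 8, of which 6 passed the filter. In all 3 comparisons 0 of the 6 were at least 2-fold different. The medians were -0.09 in the overexpression-labelled library, -0.16 in shDCBLD2 and -0.05 between the controls. Over all genes they were -0.04, 0.01 and -0.01 in that order, and 11.8%, 6.78% and 4.11% of all genes were at least 2-fold different.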

How the data were processed

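Poly(A) RNA of 4 A549 libraries was analysed. The authors deposited raw read counts per gene, and FPKM values that equal those counts per kilobase of exonic size, relative to the library total. Processing notes of the submitters name mm9, a mouse build, although the gene identifiers are human; aligner, counting program and annotation are not given in the sources used here. Library scaling used the TMM method of edgeR 4.0.16 (R 4.3.3), and with DESeq2 1.42.0 size factors as an alternative. Levels have exact Poisson intervals. Log2 ratios used a prior count of 2, with Clopper-Pearson intervals (95%) on the shares of both counts. Genes with a mean of at least 1 CPM were summarized, and 3 counts or fewer were taken as the floor. Scripts in Python 3.11.15 (scipy 1.17.1, pandas 2.3.3) were tested on simulated data. The 4 groups have 1 library each, hence no test. Members and lists were chosen with earlier results of these data known. Named were all members, other family genes past the filter, and the 2 highest and 2 lowest genes past 2-fold of each list; RDH10, CYP26A1 and CYP26B1, AKR1C2, AKR1C3, FABP5, RDH11 and DHRS3, further values of RARB, RARRES1, RARRES3 and AKR1C1, and ALDH3B2 and the markers named were picked after their values were seen. The result for 1 gene of the retinoid list is not reported here. Alternatives were other scalings, prior counts, filters, thresholds and controls, and counts drawn down to the smallest total.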

Additional observations from a re-analysis of the deposited data

How the results depend on the processing

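Under DESeq2 size factors and counts drawn down to the smallest total, all 24 log2 ratios of the 8 genes kept their sign, as they did with prior counts of 0.5 and 5. Library totals alone moved no ratio by more than 0.06 and changed 1 sign, that of ALDH1A1 between the controls. The choice of control moved ratios by up to 0.58. With sc as control for the overexpression-labelled library, the median of the 8 genes was -0.39, ALDH3B1 changed sign to 0.36, and 15 genes of the other 6 lists were at least 2-fold different in place of 9. With the empty vector as control for shDCBLD2, 1 of the 8 genes was at least 2-fold different in place of 2, and ALDH1A3 changed sign to -0.04; the 1 gene was ALDH3B1. At 1.5-fold, 4 of the 8 genes differed in the overexpression-labelled library in place of 0, where 30.6% of all genes did in place of 11.8%. Genes of the other lists past 2-fold numbered 16 without the filter and 4 with a mean of at least 5 CPM in the overexpression-labelled library, 2 with 5 CPM in place of 4 in shDCBLD2, and 4 and 0 in place of 2 between the controls. The filters change which genes are counted. The share of all genes past 2-fold is not given here for the swapped controls or the other filters. The counts under those settings therefore have no background beside them. No paired analysis was possible because each condition has 1 library. For the same reason no replicate could be left out. Counting error limits ALDH1A3 most among the 8 genes, and the spread between cultures is unknown for all.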

Other observations

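For the 3 members with the widest range over the 4 libraries, the genes with the most similar profiles were looked up among 9155 genes with a mean of at least 10 CPM. Likeness was the Euclidean distance between log2 CPM values centered on their mean over the 4 libraries, so it rests on 4 points that share depth and scaling, and with so many genes close profiles are easily met. Nearest to ALDH3A1 was CA12, a membrane carbonic anhydrase, at a distance of 0.081. CA12 stood at 653 CPM in sc, 267 CPM in shDCBLD2, 472 CPM in the empty vector library and 794 CPM in the overexpression-labelled library. HHIPL2 (0.162) and BCL6 (0.168), a transcriptional repressor, came next.

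Nearest to ALDH2 were NIPAL3 (0.089), TPPP (0.113) and FRAS1 (0.134). NIPAL3 stood at 22.6 CPM in sc, 10.8 CPM in shDCBLD2, 17.0 CPM in the empty vector library and 25.1 CPM in the overexpression-labelled library. Nearest to ALDH3B1 were TMEM187 (0.079), ATP8B3 (0.087) and RPL39P3 (0.088), which is named as a pseudogene.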
